A study of Homo sapiens with 14 samples.

Results

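Genes of the mitotic spindle and kinetochore were followed across 14 RNA-seq libraries of K562, a human chronic myeloid leukaemia cell line with erythroid features. The 44 genes were taken from a list of mitotic genes and matched by symbol to the read count table. All 44 were among its 24729 genes, and all 44 were among the 14406 genes that passed the filter on low counts. Of the 5 groups, 4 stably expressed a guide RNA, the biotin ligase BirA and a catalytically dead Cas9 (dCas9) tagged with Flag and a site that BirA biotinylates. The sgHS2, sgHBG and sgHS1-5 guides were aimed at regulatory elements of the β-globin cluster, and the sgGal4 guide at no human target. The fifth group, WT, was unmodified K562. There were 3 libraries in each guide group and 2 WT libraries. The labels do not say whether libraries of a group came from separate cultures or whether a group descends from a single clone, and p values therefore rest on library-to-library spread, which may be technical. The comparisons ask what the β-globin guides changed relative to sgGal4, and what the complete dCas9 system changed relative to WT.

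In each division, CDK1 bound to cyclin B drives entry into mitosis, and kinetochores assembled on centromeric chromatin attach chromosomes to spindle microtubules. The spindle checkpoint holds back the anaphase promoting complex until attachment is complete. Transcripts of these genes are low in G1 and peak in G2 and mitosis, under a DREAM and B-MYB-FOXM1 program that acts through CHR elements and CCAAT boxes near the transcription start. Their level in a bulk culture is therefore widely read as a measure of proliferation. In bulk RNA, fewer cells in G2 and mitosis and less of each transcript per cell cannot be told apart.

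Promoters were examined for both motifs because they are what many of the 44 genes share outside the count data. A RefSeq promoter (GRCh38.p14) was matched for 36 of the 44 genes by symbol. AURKA, BIRC5, BUB3, TTK, UBE2C, CENPH, CENPM and TPX2 had no entry. Within the 100 bases before the start, the CHR core TTTGAA, searched on both strands, was present in 13 of the 36 genes (36.1%). The same core was in 4.21% of the 10523 tested genes with an entry and in 5.76% of all 27305 genes with one. A CCAAT box (CCAAT, both strands) was in 24 of the 36 (66.7%), against 26.5% of tested genes and 21.6% of all genes. Both motifs were in 11 of the 36 (30.6%), against 1.09% of tested genes and 1.17% of all genes. Counted by start, the core was in 31.7% of the 41 promoters of these genes, against 4.61% of all 35116 promoters. The 8 windows shown here hold the core and belong to well known markers or to the called genes with the lowest p. CCNB2, BUB1B, KIF4A, KIF11 and KIF18A also held it and are not shown. They run 5′ to 3′ on the gene's strand from base -100 to base -1, with CHR cores and CCAAT boxes in capitals, and a box on the opposite strand reads ATTGG.
CDC20 (chr1:43358881-43358980, plus strand): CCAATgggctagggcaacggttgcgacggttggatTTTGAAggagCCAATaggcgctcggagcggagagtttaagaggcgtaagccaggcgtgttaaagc
KIF23 (chr15:69414249-69414348, plus strand): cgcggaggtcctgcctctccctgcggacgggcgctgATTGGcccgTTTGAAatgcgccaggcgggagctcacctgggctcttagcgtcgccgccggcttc
MKI67 (chr10:128126424-128126523, minus strand): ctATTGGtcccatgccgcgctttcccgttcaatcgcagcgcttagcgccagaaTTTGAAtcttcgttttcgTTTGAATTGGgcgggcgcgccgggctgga
CDC25C (chr5:138331805-138331904, minus strand): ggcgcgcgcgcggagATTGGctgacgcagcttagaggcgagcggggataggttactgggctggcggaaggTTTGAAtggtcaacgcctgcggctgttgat
PRC1 (chr15:90994536-90994635, minus strand): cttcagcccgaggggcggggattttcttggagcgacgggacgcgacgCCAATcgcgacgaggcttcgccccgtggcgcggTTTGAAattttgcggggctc
CDK1 (chr10:60778378-60778477, plus strand): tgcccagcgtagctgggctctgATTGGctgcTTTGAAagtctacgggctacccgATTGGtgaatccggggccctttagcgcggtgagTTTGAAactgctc
PLK1 (chr16:23678789-23678888, plus strand): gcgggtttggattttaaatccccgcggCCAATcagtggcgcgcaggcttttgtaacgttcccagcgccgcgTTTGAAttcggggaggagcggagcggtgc
CENPA (chr2:26785956-26786055, plus strand): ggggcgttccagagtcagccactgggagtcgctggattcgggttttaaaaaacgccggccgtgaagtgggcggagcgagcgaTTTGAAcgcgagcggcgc
CDC20, KIF23, MKI67, CDC25C, PRC1, CDK1 and PLK1 carried the core together with at least 1 CCAAT box, and CENPA carried the core alone. In the MKI67 window a core and a CCAAT box share bases. The CDC25C window is from 1 of 4 listed starts and the CDK1 window from 1 of 2. A match is a run of letters and no measure of binding in K562.

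The libraries held 5694448 to 11335831 counts, the lowest being sgHS1-5 1. GATA1, the erythroid transcription factor that marks K562, had 133 to 260 CPM (counts scaled to library size) in all 14 libraries, and the keratin gene KRT14 and the liver gene ALB stayed at or under 0.3 CPM. Library sizes were adjusted by the trimmed mean of M values (TMM). The library sgGal4 1 stood apart from sgGal4 2 and 3 in a way that followed transcript length: across the 44 genes its log2 deviation from the other libraries of the group had a Spearman correlation of -0.72 with length. sgHS2 2 deviated the same way to a lesser degree, with a median of -0.27 in the 14 longest of the 44 transcripts. The sgHS1-5 libraries differed among themselves as well. For description, 140 transcripts were picked that averaged at most 0.1 CPM outside sgHS1-5 and reached 5 CPM in some sgHS1-5 library. Their low level elsewhere follows from that choice, and no such set was sought for the other groups. Their sum was 78.1 CPM in sgHS1-5 1, 2120 CPM in sgHS1-5 2 and 512 CPM in sgHS1-5 3. It lay between 3.32 and 6.28 CPM in each library of the other groups. In the same libraries 11 B cell genes, listed after values had been seen, summed to 40, 423 and 109 CPM, against 17.4 to 29.7 CPM elsewhere, and MS4A1 was at 0 counts in the 11 libraries of the other groups. Results that rest on these libraries are given with and without them. Exons of CCNA2, CDC25C, CENPN, KIF18A, KIF20A, PLK1 and PRC1 overlap an opposite-strand gene that is in the count table. Those of KIF23, KIF2C and MAD2L1 overlap an opposite-strand gene, and those of BUB1B a same-strand gene, that is not in it. The library kit does not mark strand, so reads of each overlap cannot be told apart.

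The members were expressed over a wide range. On the authors' RPKM scale, which divides by transcript length, CDK1 was the highest at 113 RPKM averaged over the 5 groups. BUB3, a checkpoint protein, followed at 83.9 RPKM, then TOP2A, the topoisomerase that untangles mitotic chromosomes, at 79 RPKM. CENPI, a subunit of the constitutive centromere network, was the lowest at 3.02 RPKM, and UBE2C was next at 4.34 RPKM. The mean of the highest group was a median of 2.02 times that of the lowest group across the 44 genes (CPM scale). This ratio ran from 1.13 for CCNB2 to 5.11 for CENPE, leaving aside UBE2C, whose WT level was near the detection limit, and was at least 2 for 23 genes. sgHS2 had the lowest group mean for 34 of the 44 genes, and WT had the highest for 30. The 44 genes together summed to 3041, 2876 and 3029 CPM in sgHS2 1, 2 and 3, to 3579, 3584 and 3617 CPM in sgHBG, to 4286, 4483 and 4173 CPM in sgHS1-5, to 4311, 4004 and 3998 CPM in sgGal4, and to 5572 and 5370 CPM in WT. These sums separate sgHS2, sgHBG and WT from every other group, while sgHS1-5 and sgGal4 overlap.

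**Figure D1:**
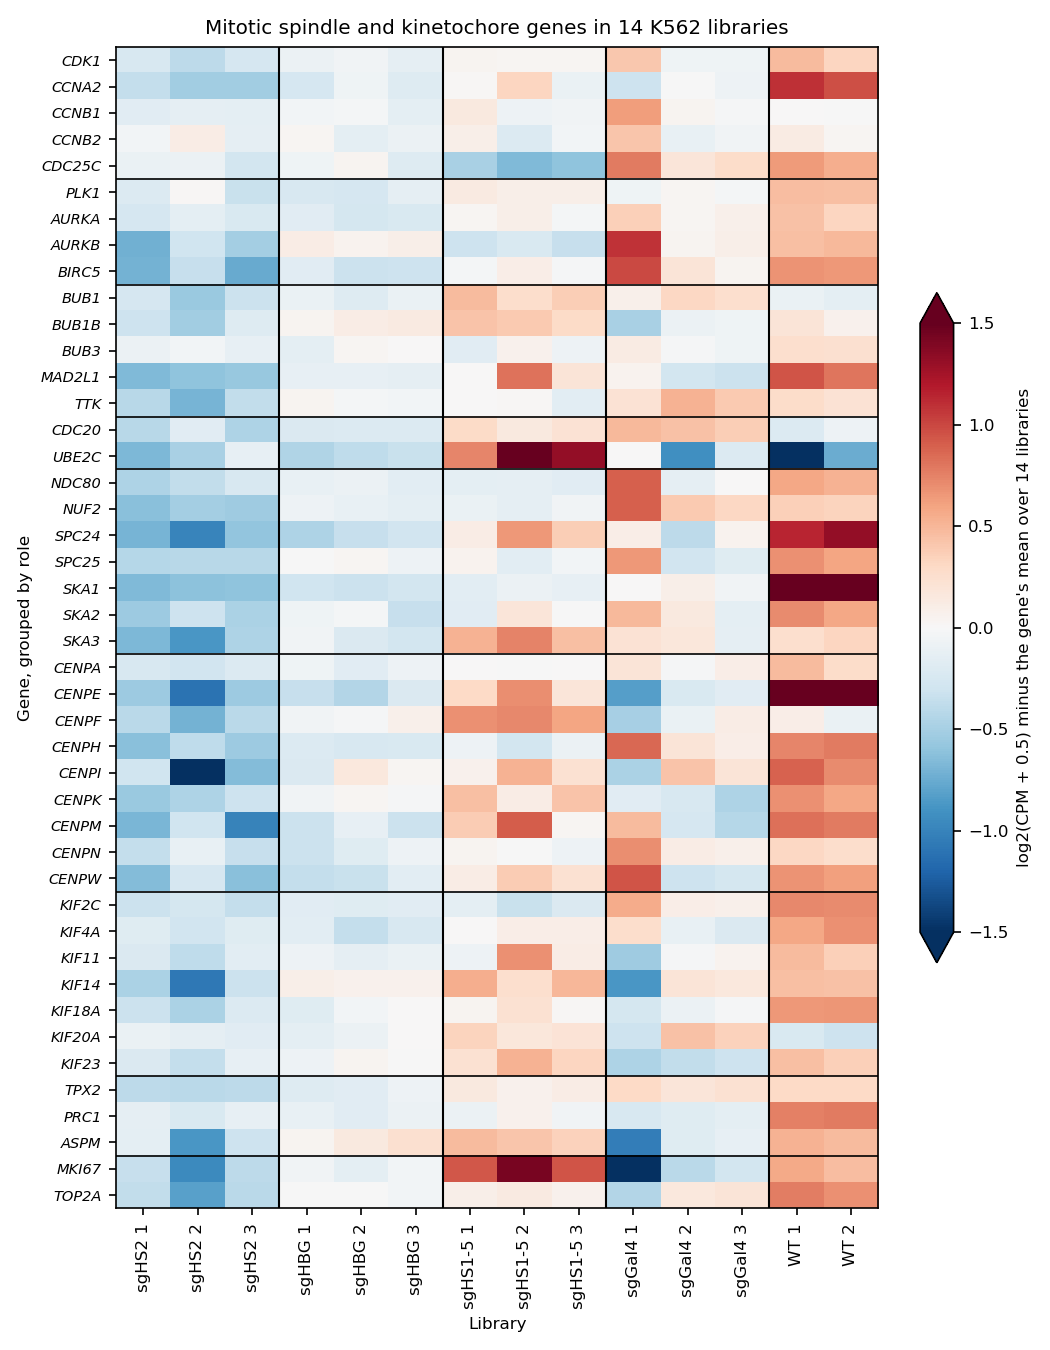
Heat map of the 44 genes (rows, grouped by role) in the 14 libraries (columns), coloured by log2(CPM + 0.5) minus the gene's mean over all libraries. The sgHS2 columns are mostly blue and the WT columns mostly red, and sgGal4 1 differs from sgGal4 2 and 3 in many rows.

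sgHS2 cells had lower levels of many spindle and kinetochore genes than sgGal4 cells. Of the 44 genes, 21 (47.7%) were lower and 0 higher by edgeR's quasi-likelihood test at an adjusted p under 0.05, against 15.6% lower and 14.5% higher among all genes tested. At an unadjusted p under 0.05, 29 were lower and 0 higher. The share of all genes at that unadjusted threshold was not computed for any comparison. DESeq2 called 26 lower and 0 higher, against 18% lower and 15.1% higher among all genes. By limma voom 21 were lower and 0 higher, against 14.8% lower and 15% higher. The median log2 difference was -0.47 for the 44 genes and -0.016 for all genes tested. Without sgGal4 1 these medians were -0.34 and 0.010. The outer kinetochore, which binds microtubule ends through the NDC80 and SKA complexes, had 6 of 7 genes lower. Lower genes also included 3 of 4 mitotic kinase and passenger complex genes, 2 of 5 mitotic entry genes, 2 of 5 checkpoint genes and 4 of 9 CENP genes, but 1 of 7 kinesins.

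NUF2, the partner of NDC80 in the microtubule-binding complex, had 38.4, 41.7 and 41.3 CPM in sgHS2 cells, against 112, 78.3 and 74.5 CPM in sgGal4 cells. Every sgHS2 library was below every sgGal4 library, at a log2 difference of -1.12 ± 0.13 (SE, adjusted p = 6.29e-05), and -0.92 without sgGal4 1. TPX2, which activates Aurora A and nucleates spindle microtubules, had 173, 171 and 173 CPM in sgHS2 cells, against 278, 258 and 266 CPM in sgGal4 cells. The groups were apart with little spread in either, and the difference was -0.63 ± 0.08 (adjusted p = 7.44e-05). CDC20, the activator of the anaphase promoting complex, had 102, 121 and 99.2 CPM in sgHS2 cells, against 192, 185 and 177 CPM in sgGal4 cells. Its difference was -0.78 ± 0.10 (adjusted p = 7.79e-05), again without overlap. TTK, the checkpoint kinase MPS1, and BUB1, a checkpoint kinase and scaffold at the kinetochore, fell by 0.88 and 0.59 on the log2 scale (adjusted p = 0.00011 and 0.0011). SKA1 and SKA3, subunits of the complex that couples kinetochores to microtubule ends, fell by 0.65 and 0.77 (adjusted p = 1e-04 and 0.00146). BIRC5 (survivin), of the chromosomal passenger complex, fell by 1.06 (adjusted p = 0.00203), and its difference was -0.71 without sgGal4 1. CENPH, of the constitutive centromere network, fell by 0.94 (adjusted p = 0.00112), and its difference was -0.66 without sgGal4 1.

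Some of the best known mitotic markers did not pass this test or lost their call with a library left out. CCNB1, cyclin B1, had 125, 129 and 128 CPM in sgHS2 cells, against 218, 145 and 140 CPM in sgGal4 cells. The groups did not overlap and sgGal4 1 was the highest, but the difference of -0.40 ± 0.14 did not pass (adjusted p = 0.0558), and it was -0.16 without sgGal4 1. PLK1, the Polo kinase, had 104, 121 and 94.9 CPM in sgHS2 cells, against 114, 122 and 117 CPM in sgGal4 cells, and these ranges overlapped (adjusted p = 0.292). MKI67, the gene of the Ki-67 proliferation antigen, had 103, 67.3 and 100 CPM in sgHS2 cells, against 39.7, 99.2 and 108 CPM in sgGal4 cells. Its lowest value was in sgGal4 1, and the difference was 0.13 ± 0.29 (adjusted p = 0.778). CDK1 fell by 0.40 ± 0.12 (adjusted p = 0.0223), CENPA, the histone H3 variant of centromeres, by 0.35 ± 0.10 (adjusted p = 0.0177) and NDC80 by 0.68 ± 0.20 (adjusted p = 0.0234). Without sgGal4 1 these 3 differences were -0.23, -0.30 and -0.29. The CDK1 call was lost without sgHS2 2 or sgHS2 3, the CENPA call without sgHS2 1, and the NDC80 call without sgHS2 1 or sgHS2 2. CENPI and TOP2A were called although their libraries overlapped. Of the 21 calls, 15 stood whichever of the 6 libraries was left out. Without sgGal4 1 all 21 remained and 6 more genes were lower (CCNA2, BUB1B, CENPE, CENPF, KIF14 and KIF20A), and 19.1% of all genes were lower.

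**Figure D2:**
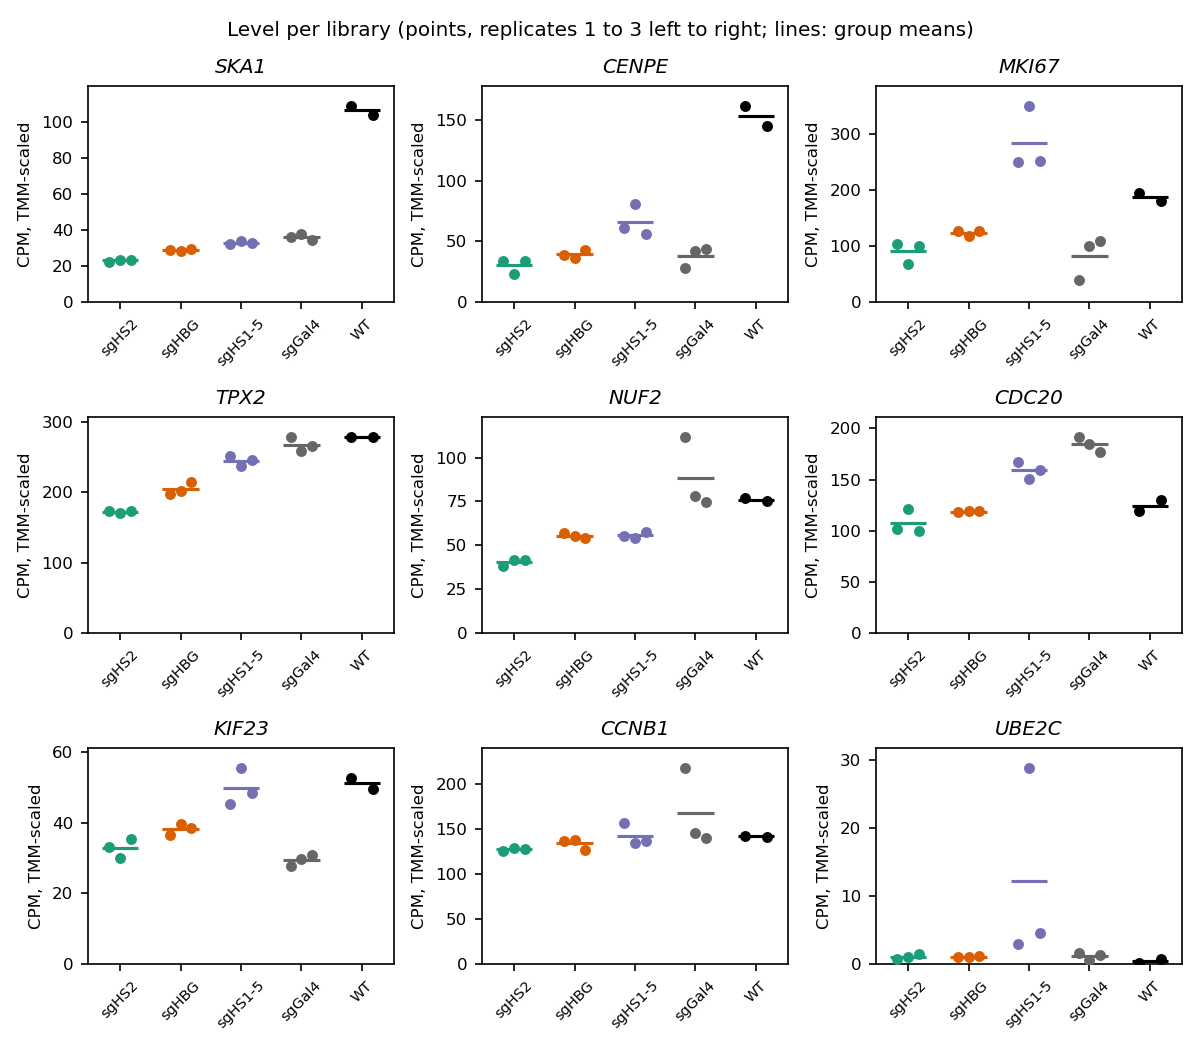
Level of 9 genes in each library (points, TMM-scaled CPM on axes from 0, replicates left to right), with group means as lines. WT stands far above all guide groups for SKA1 and CENPE, sgHS2 is lowest for TPX2 and NUF2, and UBE2C is near 0 outside sgHS1-5.

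In sgHBG cells 12 of 44 genes (27.3%) were lower and 1 (2.27%) higher than in sgGal4 cells, against 12.6% lower and 12.1% higher among all genes tested. The median log2 difference was -0.21, against -0.001 for all genes, and it was -0.12 without sgGal4 1. CDC20 had 118, 119 and 119 CPM in sgHBG cells, below 192, 185 and 177 CPM in sgGal4 cells, at a log2 difference of -0.64 ± 0.09 (adjusted p = 0.000541). NUF2 had 56.8, 55.4 and 53.9 CPM in sgHBG cells, against 112, 78.3 and 74.5 CPM in sgGal4 cells (-0.67 ± 0.13, adjusted p = 0.00329). TPX2 had 198, 202 and 215 CPM in sgHBG cells, against 278, 258 and 266 CPM in sgGal4 cells (-0.38 ± 0.08, adjusted p = 0.00353). None of these 3 genes overlapped between the groups, and they are the 3 lower calls that stood with each of the 6 libraries left out in turn. KIF23, a kinesin of the central spindle needed for cytokinesis, was the gene called higher, with 36.4, 39.7 and 38.5 CPM in sgHBG cells against 27.8, 29.7 and 30.9 CPM in sgGal4 cells. Its difference was 0.37 ± 0.10 (adjusted p = 0.0211), and the call was lost without sgHBG 2 or sgHBG 3. The number of genes called lower was 7, 4 and 5 without sgHBG 1, 2 and 3, against 7.26%, 6.58% and 6.53% of all genes. It was 13 without sgGal4 1, against 14.1% of all genes. The sgHBG and sgHS2 comparisons share the sgGal4 libraries.

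In sgHS1-5 cells the genes moved in both directions. Of the 44 genes, 11 (25%) were higher and 6 (13.6%) lower than in sgGal4 cells, against 20.3% higher and 20.2% lower among all genes tested, so neither share is far from the background. The median log2 difference was 0.06, against 0.019 for all genes. Higher genes included 3 of 9 CENP genes and 2 of 5 checkpoint genes, and the mitotic entry and mitotic kinase lists each had 1 gene lower and 0 higher by edgeR's quasi-likelihood test. At an unadjusted p under 0.05 those lists had 1 and 2 genes lower and 0 higher.

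MKI67 had 250, 351 and 252 CPM in sgHS1-5 cells, against 39.7, 99.2 and 108 CPM in sgGal4 cells. The groups were far apart, at a log2 difference of 1.78 ± 0.30 (adjusted p = 0.000588), which was 1.46 without sgGal4 1 and 1.60 without sgHS1-5 2 and 3. KIF23 had 45.3, 55.6 and 48.4 CPM in sgHS1-5 cells, against 27.8, 29.7 and 30.9 CPM in sgGal4 cells (0.75 ± 0.10, adjusted p = 0.000171). CENPF, a large kinetochore protein of G2 and mitosis, had 247, 253 and 232 CPM in sgHS1-5 cells, against 109, 144 and 166 CPM in sgGal4 cells (0.80 ± 0.14, adjusted p = 0.000923). CDC25C, the phosphatase that activates CDK1, went the other way, with 23.6, 20.8 and 21.6 CPM in sgHS1-5 cells against 57.3, 37.6 and 40.4 CPM in sgGal4 cells (-1.03 ± 0.15, adjusted p = 0.000239). NUF2 fell by 0.66 ± 0.13 (adjusted p = 0.00218) and KIF2C, the microtubule-depolymerising kinesin MCAK, by 0.49 ± 0.12 (adjusted p = 0.00625). None of these 6 genes overlapped between the groups, and none lost its call when a single library was left out, although KIF2C was at -0.32 without sgGal4 1.

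The comparison was repeated without the sgHS1-5 libraries in which the 140 otherwise nearly absent transcripts were most abundant. With sgHS1-5 2 and 3 left out, 5 genes were higher (BUB1B, CENPF, CENPK, KIF23 and MKI67) and 1 lower (CDC25C). Among all genes 8.46% were then higher and 8.76% lower. The 11 calls lost were AURKB, MAD2L1, TTK, UBE2C, NUF2, SPC24, SKA3, CENPE, CENPH, KIF2C and ASPM. That setting keeps a single sgHS1-5 library, which is taken to vary as the other groups do. UBE2C, the ubiquitin-conjugating enzyme of the anaphase promoting complex, had 2.92, 28.9 and 4.6 CPM in sgHS1-5 1, 2 and 3, against 1.56, 0.581 and 1.28 CPM in sgGal4 cells, and 0.192 to 1.56 CPM over the 11 libraries of the other groups. Whether the counting annotation covers the main UBE2C transcript is not given in the sources used here. MAD2L1, the checkpoint protein MAD2, had 45.8, 80.2 and 52.2 CPM in sgHS1-5 cells, against 47.2, 37.3 and 36.1 CPM in sgGal4 cells, and its call (0.57 ± 0.18, adjusted p = 0.0214) was lost without sgHS1-5 2, at 0.30, and also without sgGal4 2 or sgGal4 3. Both genes were highest, within sgHS1-5, in the library where the B cell genes summed to 423 CPM, whose part in these values was not tested. Without sgHS1-5 2 alone, 9 genes were higher and 5 lower, against 15.8% higher and 16.6% lower among all genes tested.

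**Figure D3:**
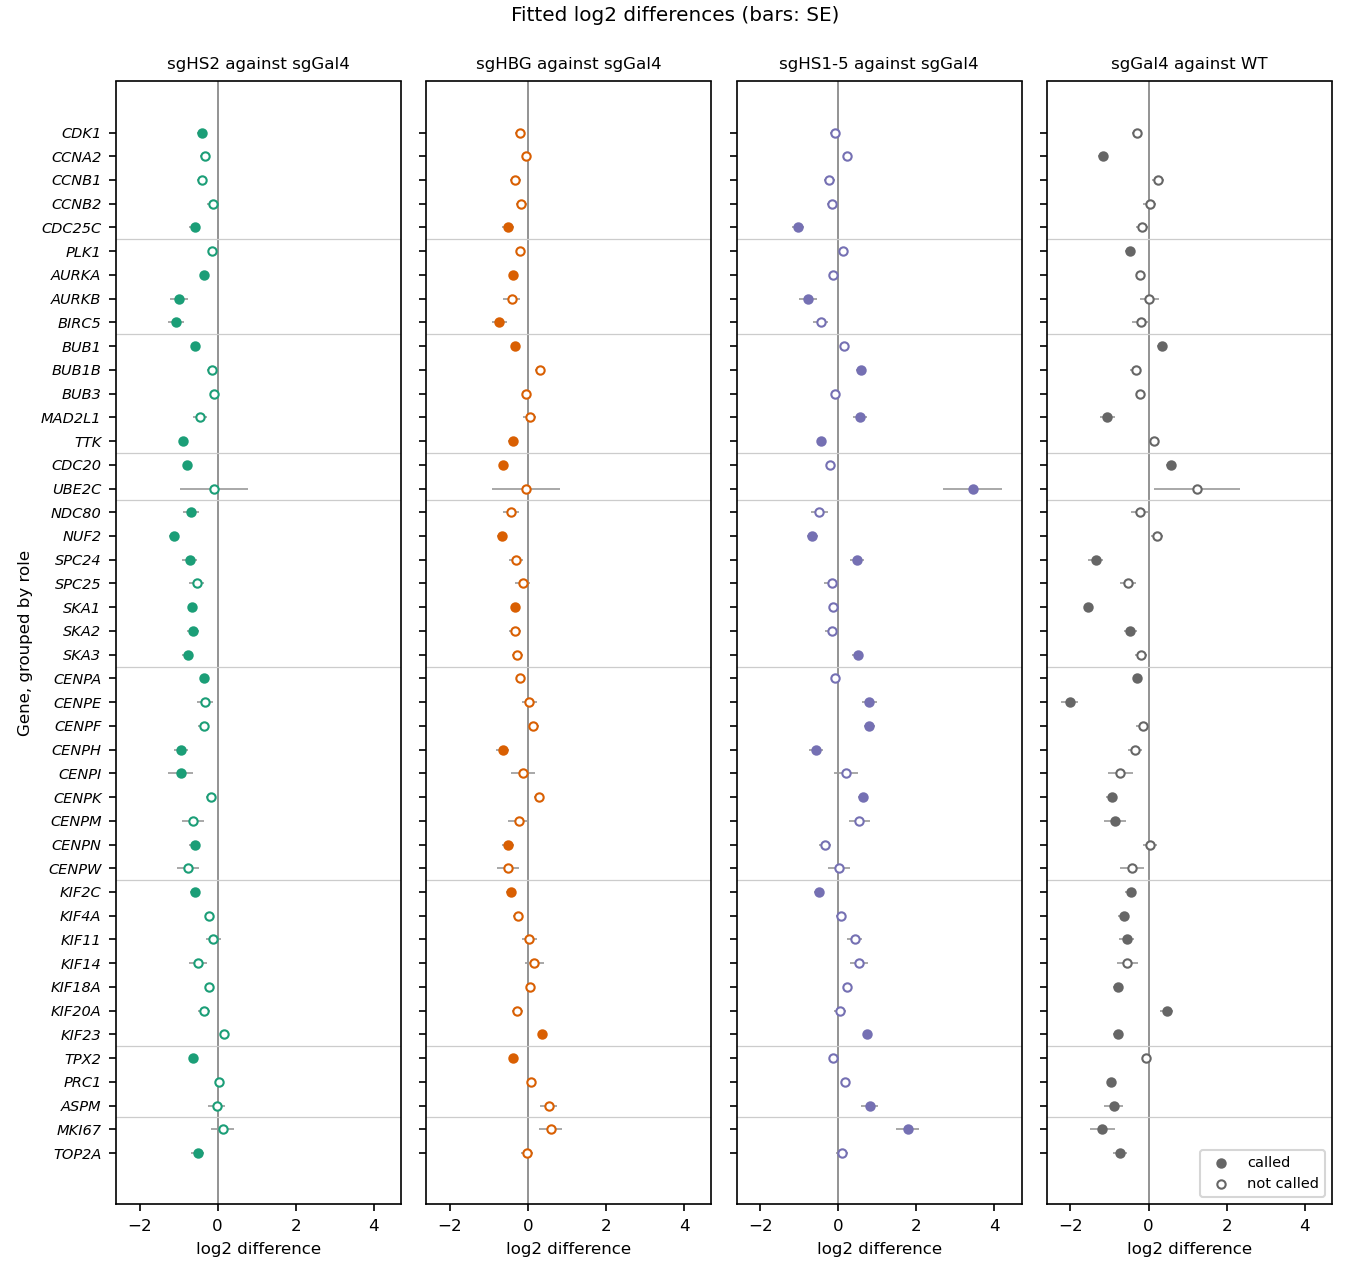
Fitted log2 differences (points, with SE bars) of the 44 genes in 4 comparisons, filled where called at an adjusted p under 0.05 by edgeR. The sgHS2 points lie mostly left of 0, the sgHS1-5 points on both sides with UBE2C far right, and SKA1 and CENPE lie farthest left in sgGal4 against WT.

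The guide-carrying control cells also differed from unmodified K562. Between sgGal4 and WT cells, 19 of 44 genes (43.2%) were lower and 3 (6.82%) higher, against 19.6% lower and 22.7% higher among all genes tested. The median log2 difference was -0.38, against 0.034 for all genes. Kinesins had 5 of 7 genes lower and 1 higher, and CENP and outer kinetochore genes had 4 of 9 and 3 of 7 lower. SKA1 had 36, 37.9 and 34.4 CPM in sgGal4 cells, against 109 and 104 CPM in WT cells, a log2 difference of -1.56 ± 0.09 (adjusted p = 6.05e-08). CENPE, the kinesin that carries chromosomes along microtubules to the spindle equator, had 27.7, 42.1 and 43.7 CPM in sgGal4 cells, against 162 and 145 CPM in WT cells (-2.02 ± 0.21, adjusted p = 1.17e-05). PRC1, which bundles the antiparallel microtubules of the central spindle, had 119, 124 and 127 CPM in sgGal4 cells, against 238 and 242 CPM in WT cells (-0.96 ± 0.09, adjusted p = 3.32e-06). These 3 genes were separated between the groups by far more than the spread within either.

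Against this direction, CDC20 had 192, 185 and 177 CPM in sgGal4 cells and 119 and 130 CPM in WT cells, higher by 0.57 ± 0.11 on the log2 scale (adjusted p = 0.00104). BUB1 (0.34 ± 0.12, adjusted p = 0.0346) and KIF20A, another cytokinesis kinesin (0.47 ± 0.17, adjusted p = 0.0434), were also called higher. KIF20A had 48.5, 82 and 76.5 CPM in sgGal4 cells, against 51.2 and 48.5 CPM in WT cells, so sgGal4 1 lay within the WT range. The BUB1 and KIF20A calls were each lost without sgGal4 2, sgGal4 3, WT 1 or WT 2, which left CDC20 as the higher call. PLK1 fell by 0.48 ± 0.11 (adjusted p = 0.00283), whereas CCNB1 (0.24 ± 0.16, adjusted p = 0.252) and CDK1 (-0.30 ± 0.13, adjusted p = 0.087) did not pass. MKI67 fell by 1.18 ± 0.32 (adjusted p = 0.00938), a call lost without WT 1, and CENPA by 0.29 ± 0.11 (adjusted p = 0.044), a call lost without sgGal4 2, sgGal4 3, WT 1 or WT 2 (-0.19 without WT 1). Of the 19 lower calls, 12 stood with each library left out in turn. Without sgGal4 1, 28 genes were lower, CDK1 (-0.47, adjusted p = 0.000255) and NDC80 (-0.62, adjusted p = 4.7e-05) among them, against 24.4% of all genes. Without WT 1, which leaves 1 WT library, fewer genes were called lower, and the median log2 difference was -0.38.

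Each group with a guide aimed at the β-globin cluster was also set against WT. In sgHS2 cells 38 of 44 genes (86.4%) were lower and 0 higher, against 15.5% lower and 17.6% higher among all genes tested. In sgHBG cells 29 (65.9%) were lower and 0 higher, against 15.9% and 17.7%. For both comparisons 0 of the 44 genes were higher at an unadjusted p under 0.05, and 0 by DESeq2 or limma voom with adjustment. Among all genes DESeq2 called 18.4% higher in sgHS2 and 19% in sgHBG cells, and limma voom 17.4% and 17.7%. In sgHS1-5 cells 22 (50%) were lower and 5 higher, against 19.5% lower and 23.4% higher. All 7 outer kinetochore genes were lower in sgHS2 and in sgHBG cells, and 6 of 7 in sgHS1-5 cells. In sgHBG cells the NDC80, NUF2 and SPC25 calls were lost without any one sgHBG library, and the SKA3 call without sgHBG 2 or sgHBG 3. In sgHS1-5 cells the NUF2 call was lost without any one sgHS1-5 library. The NDC80 call there was lost without sgHS1-5 3, and the SPC25 call without sgHS1-5 2. SKA1 had 22.4, 23.2 and 23.4 CPM in sgHS2 cells, 28.9, 28.5 and 29.4 CPM in sgHBG cells and 31.9, 33.6 and 32.9 CPM in sgHS1-5 cells, against 109 and 104 CPM in WT cells. Its log2 differences were -2.21 ± 0.09, -1.88 ± 0.09 and -1.70 ± 0.09 (adjusted p = 1.17e-08, 2.48e-08 and 3e-08). CENPE had 33.8, 22.7 and 33.7 CPM in sgHS2 cells, 38.7, 36.2 and 42.4 CPM in sgHBG cells and 61.1, 80.6 and 56.1 CPM in sgHS1-5 cells, against 162 and 145 CPM in WT cells, and was called lower in all 3. SKA1, CENPE and PRC1 kept their calls in each of the 3 comparisons whichever library was left out. These comparisons share 2 WT libraries. Without WT 1, which leaves 1 WT library, fewer genes were called lower in each. The median log2 differences were then -0.90 in sgHS2, -0.55 in sgHBG and -0.31 in sgHS1-5 cells, and -0.43 in sgHS1-5 cells without WT 2. The 5 higher calls in sgHS1-5 cells became 3 without sgHS1-5 1, against 22.4% of all genes, and were also fewer without WT 1 or WT 2.

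**Figure D4:**
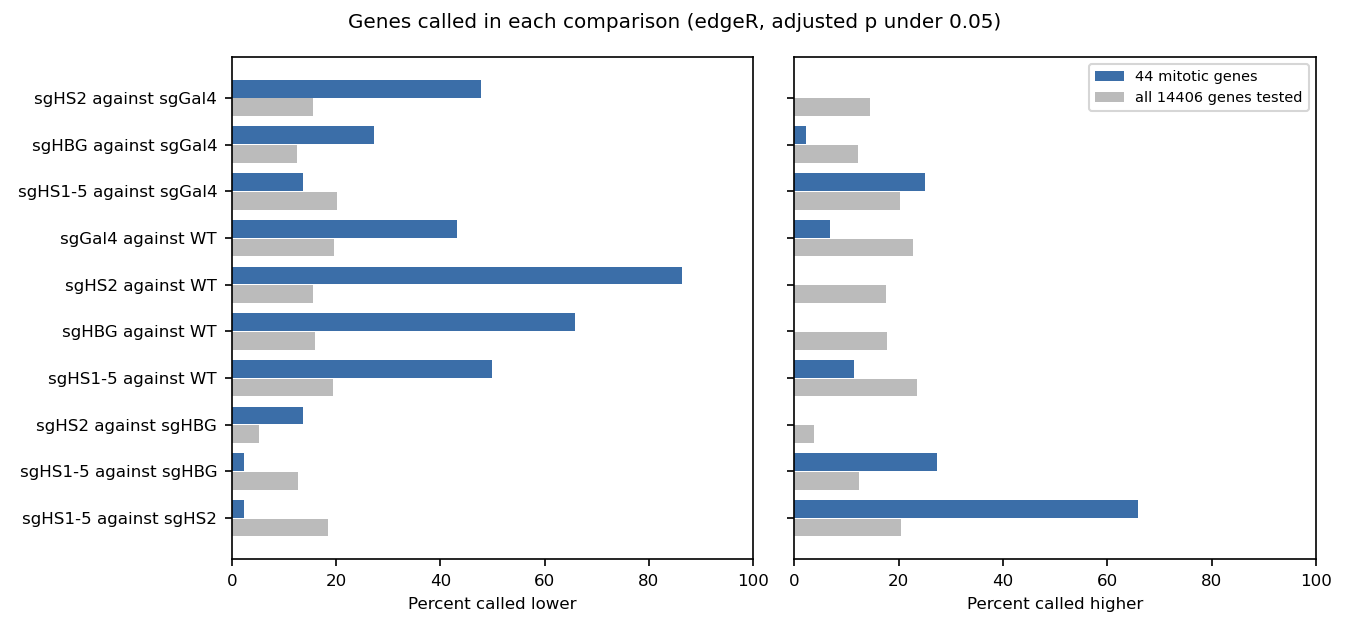
Percent of the 44 genes (blue) and of all 14406 genes tested (grey) called lower (left) and higher (right) in each of 10 comparisons. The share of the 44 called lower reaches 86.4% in sgHS2 against WT, and the share called higher reaches 65.9% in sgHS1-5 against sgHS2.

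The guides aimed at the β-globin cluster also differed from each other. Between sgHS1-5 and sgHS2 cells 29 of 44 genes (65.9%) were higher and 1 lower, against 20.4% higher and 18.5% lower among all genes tested. The median log2 difference was 0.51, against 0.034 for all genes. MKI67 had 250, 351 and 252 CPM in sgHS1-5 cells and 103, 67.3 and 100 CPM in sgHS2 cells, the largest rise among the members other than UBE2C (log2 difference 1.65 ± 0.29, adjusted p = 0.000872). SKA3 had 28.7, 33.5 and 27.3 CPM in sgHS1-5 cells and 12.2, 10.6 and 14.2 CPM in sgHS2 cells (1.27 ± 0.14, adjusted p = 3.17e-05). CDC25C was the gene called lower, by 0.44 ± 0.15 (adjusted p = 0.0339), and this call was lost without sgHS2 1, sgHS2 2, sgHS1-5 2 or sgHS1-5 3. Without both sgHS1-5 2 and 3, 15 genes were higher and 0 lower by edgeR, against 9.16% higher and 9.46% lower among all genes.

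Between sgHS1-5 and sgHBG cells 12 genes (27.3%) were higher and 1 lower, against 12.4% higher and 12.8% lower among all genes tested. CDC20 had 167, 151 and 159 CPM in sgHS1-5 cells and 118, 119 and 119 CPM in sgHBG cells (0.42 ± 0.10, adjusted p = 0.0066). CDC25C was the gene called lower (-0.52 ± 0.15, adjusted p = 0.0229), and lost its call without sgHBG 1, sgHBG 2, sgHS1-5 2 or sgHS1-5 3. Without sgHBG 1, 7 genes were higher, against 7.04% of all genes. Without sgHS1-5 2 and 3, which leaves 1 sgHS1-5 library, fewer were higher. The median log2 difference was then 0.23, against 0.27 with all libraries. Between sgHS2 and sgHBG cells 6 genes (13.6%) were lower and 0 higher, against 5.15% lower and 3.76% higher. They were TTK, SKA1, SKA3, BUB1B, CENPF and CENPK, with TTK at 39.2, 32.1 and 40.5 CPM in sgHS2 cells and 53.9, 51.3 and 50.9 CPM in sgHBG cells (-0.48 ± 0.11, adjusted p = 0.019). At an unadjusted p under 0.05, 18 were lower and 0 higher. DESeq2 called 9 lower and 0 higher, against 6.87% lower and 5.34% higher among all genes. No single call of the 6 stood with every library left out in turn: 0, 0 and 2 genes were lower without sgHS2 1, 2 and 3, and 0 without any one of the sgHBG libraries. Among all genes 2.65%, 3.16% and 3.01% were lower without sgHS2 1, 2 and 3. With sgGal4 1 and sgHS2 2 both left out of the fit, 21 were lower, and the share of all genes called lower was 13%.

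By role, the other members filled in these patterns, and ranges in this account are the lowest and highest of the 14 libraries on the CPM scale. Among mitotic entry genes, CDK1 had 132, 118 and 130 CPM in sgHS2 cells, 146, 150 and 142 CPM in sgHBG cells and 160, 158 and 158 CPM in sgHS1-5 cells, against 205, 149 and 148 CPM in sgGal4 cells and 216 and 195 CPM in WT cells. The sgHS2 libraries were below all others, and the sgHBG libraries overlapped those of sgGal4. CCNA2, cyclin A2, ranged from 74.2 to 228 CPM and was called in sgGal4 against WT, where it fell by 1.16 ± 0.13 (adjusted p = 2.33e-05), but in none of the 3 comparisons with sgGal4. CCNB2, cyclin B2, ranged from 68.1 to 105 CPM and CCNB1 from 125 to 218 CPM, and neither was called in these 4 comparisons or against WT. CDC25C was called lower than in sgGal4 cells in all 3 guide groups. Its sgHBG call was lost without sgHBG 1 or sgHBG 3, and without sgGal4 1 its differences in sgHS2 and sgHBG cells were -0.39 and -0.31. AURKA, the Aurora A kinase of spindle poles, ranged from 59.2 to 96.1 CPM and was lower in sgHS2 (-0.36 ± 0.10, adjusted p = 0.0156) and in sgHBG cells (-0.38 ± 0.10, adjusted p = 0.0167). Its calls were lost without sgHS2 1 or sgHS2 3, and without sgHBG 2 or sgHBG 3. AURKB and BIRC5, which share the passenger complex, ranged from 44.6 to 157 CPM and from 61.4 to 207 CPM, and sgGal4 1 had the highest value of both. BIRC5 was called lower in sgHBG cells (-0.73, and -0.38 without sgGal4 1), a call lost without sgHBG 2 or sgHBG 3. AURKB was called lower in sgHS1-5 cells (-0.78, and -0.36 without sgGal4 1), a call lost without sgHS1-5 3.

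Among checkpoint genes, BUB1 had 110, 89.2 and 105 CPM in sgHS2 cells, 123, 115 and 123 CPM in sgHBG cells and 183, 158 and 170 CPM in sgHS1-5 cells, against 138, 163 and 156 CPM in sgGal4 cells and 123 and 119 CPM in WT cells. The sgHS2 and sgHBG libraries were below those of sgGal4, and the sgHS1-5 libraries overlapped them. The BUB1 call in sgHBG cells was lost in 5 of 6 leave-outs, all but that of sgGal4 1. BUB1B, the checkpoint protein BUBR1, ranged from 56.1 to 109 CPM and was higher in sgHS1-5 than in sgGal4 cells (0.58 ± 0.12, adjusted p = 0.00301). BUB3 varied least in this role, from 148 to 198 CPM, and was not called against sgGal4 or in sgGal4 against WT. TTK ranged from 32.1 to 75.4 CPM and was called lower than in sgGal4 cells in all 3 guide groups. The sgHBG call was lost without sgHBG 1, 2 or 3 or sgGal4 2 (adjusted p up to 0.0797), and the sgHS1-5 call without sgHS1-5 2 and 3 together.

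In the outer kinetochore, NDC80 had 60.4, 64.3 and 70.4 CPM in sgHS2 cells, 77.3, 78.2 and 74.9 CPM in sgHBG cells and 75.3, 75.9 and 74.2 CPM in sgHS1-5 cells, against 155, 76 and 83.5 CPM in sgGal4 cells and 125 and 120 CPM in WT cells. sgGal4 1 was above every other library, WT included. The remaining subunits of the NDC80 complex, SPC24 and SPC25, ranged from 4.83 to 25.9 CPM and from 35.2 to 76.9 CPM. SPC24 was lower in sgHS2 (-0.72 ± 0.19, adjusted p = 0.0123), higher in sgHS1-5 (0.49 ± 0.18, adjusted p = 0.0483) than in sgGal4 cells, and lower in sgGal4 than in WT cells (-1.35 ± 0.19, adjusted p = 0.00013). The SPC24 call in sgHS1-5 cells was lost without sgHS1-5 2, sgHS1-5 3, sgGal4 2 or sgGal4 3 (adjusted p up to 0.18). SPC25 had a difference of -0.54 ± 0.19 in sgHS2 cells, which did not pass (adjusted p = 0.0525). SKA2, the third subunit of the SKA complex, ranged from 31.5 to 76.4 CPM. It was lower in sgHS2 than in sgGal4 cells (-0.63 ± 0.16, adjusted p = 0.00988), at -0.45 without sgGal4 1. SKA2 was also called lower in sgGal4 than in WT cells, a call lost without sgGal4 2, sgGal4 3, WT 1 or WT 2, and the SKA1 call in sgHBG against sgGal4 cells was lost without sgHBG 2.

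Among CENP genes, CENPA had 19, 18.4 and 19.5 CPM in sgHS2 cells, 21.6, 20.1 and 21.5 CPM in sgHBG cells and 22.8, 22.5 and 22.8 CPM in sgHS1-5 cells, against 26, 22.4 and 24.2 CPM in sgGal4 cells and 31.6 and 27.5 CPM in WT cells. The groups were close, with sgHS2 lowest and WT highest. CENPH, CENPI, CENPK, CENPM, CENPN and CENPW belong to the constitutive centromere network. Their ranges were 53.7 to 151, 1.82 to 12.4, 12.2 to 29.5, 5.8 to 23.2, 49.4 to 103 and 12.4 to 38.6 CPM. CENPH was called lower than in sgGal4 cells in all 3 guide groups, CENPN in sgHS2 and sgHBG cells, and CENPI in sgHS2 cells. The CENPH call was lost in sgHBG cells without sgHBG 2 and in sgHS1-5 cells without sgHS1-5 2, and without sgGal4 1 its differences there were -0.37 (from -0.65) and -0.29 (from -0.57). The CENPN call in sgHBG cells was lost without any one sgHBG library, and without sgGal4 1 its differences were -0.37 in sgHS2 and -0.28 in sgHBG cells. The CENPI call was lost without sgHS2 2, sgHS2 3, sgGal4 2 or sgGal4 3. CENPK was higher in sgHS1-5 than in sgGal4 cells (0.64 ± 0.13, adjusted p = 0.00211) and lower in sgGal4 than in WT cells (-0.94 ± 0.14, adjusted p = 0.000151). CENPM was lower in sgGal4 than in WT cells (-0.86 ± 0.29, adjusted p = 0.0302), a call lost without sgGal4 2, sgGal4 3, WT 1 or WT 2 (adjusted p up to 0.12). CENPW was called in none of these 4 comparisons.

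Among kinesins, KIF2C had 189, 196 and 184 CPM in sgHS2 cells, 209, 207 and 210 CPM in sgHBG cells and 213, 187 and 203 CPM in sgHS1-5 cells, against 346, 252 and 249 CPM in sgGal4 cells and 390 and 385 CPM in WT cells. Each of the 3 guide groups was below sgGal4, and sgGal4 was below WT. The KIF2C call in sgHBG cells was lost without any one sgHBG library (-0.27 without sgGal4 1), and that of sgGal4 against WT without WT 1 or WT 2. KIF4A and KIF18A, which limit microtubule growth on chromosomes and at kinetochores, ranged from 44.3 to 91.5 CPM and from 16.7 to 37.3 CPM, and fell by 0.64 ± 0.13 and 0.79 ± 0.12 in sgGal4 against WT cells (adjusted p = 0.00181 and 0.000233). KIF4B, a near copy of KIF4A, stayed between 0.0968 and 0.993 CPM. KIF11, the kinesin that separates spindle poles, ranged from 42.3 to 98.7 CPM and was lower in sgGal4 than in WT cells (-0.56 ± 0.20, adjusted p = 0.0425), a call lost without sgGal4 1, WT 1 or WT 2. KIF14, a cytokinesis kinesin of 30 to 93.1 CPM, was called in none of the 4. ASPM, a protein of spindle poles, ranged from 47.2 to 140 CPM, and was higher in sgHS1-5 than in sgGal4 cells (0.81 ± 0.22, adjusted p = 0.011) and lower in sgGal4 than in WT cells (-0.89 ± 0.24, adjusted p = 0.0091), the second call being lost without WT 1. TOP2A ranged from 273 to 815 CPM and was lower in sgHS2 than in sgGal4 cells (-0.51 ± 0.16, adjusted p = 0.0248) and in sgGal4 than in WT cells (-0.73 ± 0.17, adjusted p = 0.00419), and the sgHS2 call was lost without sgHS2 2, sgGal4 2 or sgGal4 3.

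The regulators and neighbours of this program were read from lists of other genes, to be set beside the shares of all genes: 15.6% lower and 14.5% higher in sgHS2, 12.6% and 12.1% in sgHBG, and 20.2% and 20.3% in sgHS1-5 against sgGal4, and 19.6% and 22.7% in sgGal4 against WT. In sgHBG cells the shares lower among further mitotic genes (11.7%) and regulators (12.5%) were at that background. Of 60 further mitotic genes, 30 were lower and 0 higher in sgHS2 than in sgGal4 cells, 7 lower and 1 higher in sgHBG cells, and 6 lower and 18 higher in sgHS1-5 cells. Between sgGal4 and WT cells 23 were lower and 2 higher. Of 16 transcription regulators of mitotic genes, 4 were lower and 0 higher in sgHS2, 2 lower and 0 higher in sgHBG, and 2 lower and 2 higher in sgHS1-5 than in sgGal4 cells, and 8 lower and 2 higher in sgGal4 than in WT cells. FOXM1, the forkhead activator of the G2 and mitotic genes, averaged 45.5 ± 4.45 CPM in sgHS2 cells and 61.8 ± 4.12 CPM in sgGal4 cells (SD, n = 3 each; log2 difference -0.44 ± 0.11, adjusted p = 0.00812). MYBL2 (B-MYB) averaged 145 ± 34 CPM in sgHS1-5 cells and 84.7 ± 11.8 CPM in sgGal4 cells (0.78 ± 0.16, adjusted p = 0.00207), and 244 ± 3.7 CPM in WT cells (SD, n = 2), from which sgGal4 cells differed by -1.53 ± 0.17 (adjusted p = 1.65e-05). Of 27 G1/S genes, 18 were lower and 1 higher in sgHS2 than in sgGal4 cells, 2 lower and 0 higher in sgHBG cells, and 3 lower and 7 higher in sgHS1-5 cells, and 13 were lower and 4 higher in sgGal4 than in WT cells. CDC6, which loads the replicative helicase, averaged 48 ± 2.5 CPM in sgHS2 cells and 104 ± 16.9 CPM in sgGal4 cells (-1.12 ± 0.12, adjusted p = 2.35e-05). The share of cells in each phase was not analysed here. Among the 4 G1/S genes higher in sgGal4 than in WT cells, CCND1, cyclin D1, had the lowest adjusted p. It averaged 33.7 ± 3.14 CPM in sgGal4 cells (SD, n = 3) and 5.9 ± 0.36 CPM in WT cells (SD, n = 2), a difference of 2.51 ± 0.16 (adjusted p = 1.57e-07). CDKN1A, the cyclin-dependent kinase inhibitor p21, averaged 81 ± 1.81 CPM in sgGal4 cells and 27.2 ± 2.04 CPM in WT cells (1.57 ± 0.12, adjusted p = 8.12e-07). Of 11 tubulins, the subunits of spindle and other microtubules, 2 were lower and 1 higher in sgHS2, 4 lower and 0 higher in sgHBG, and 5 lower and 0 higher in sgHS1-5 than in sgGal4 cells, and 1 was lower and 5 higher in sgGal4 than in WT cells. TUBB2B averaged 6.62 ± 1.32 CPM in sgHS2 cells and 30.9 ± 4.42 CPM in sgGal4 cells (SD, n = 3 each; -2.22 ± 0.16, adjusted p = 1.52e-06). Its mean was similarly low in sgHBG (7.49 CPM), sgHS1-5 (6.75 CPM) and WT cells (8.61 CPM), so sgGal4 was the group that stood apart. In sgGal4 against WT cells it was higher by 1.84 ± 0.19 (adjusted p = 7.33e-06).

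The members differed most within sgGal4. Compared with the mean of sgGal4 2 and 3, sgGal4 1 had a median log2 deviation of 0.48 in the 14 shortest of the 44 transcripts and of -0.53 in the 14 longest, and 22 genes deviated by more than 0.5. Length here is the value implied by each gene's counts and RPKM. MKI67, the longest member, deviated by -1.37, and CENPW, a short centromere subunit, by 1.24. AURKB, the catalytic subunit of the passenger complex, had 157, 75.6 and 78.3 CPM in sgGal4 1, 2 and 3, and its log2 difference in sgHS2 cells was -0.99 with sgGal4 1 and -0.57 without it. In sgHBG, by contrast, no gene deviated by more than 0.5 in any library. Leaving out sgGal4 1 turned the direction of no call of the 44 genes in the 4 comparisons that use sgGal4, and KIF11, in sgGal4 against WT, was the 1 call lost.

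**Figure D5:**
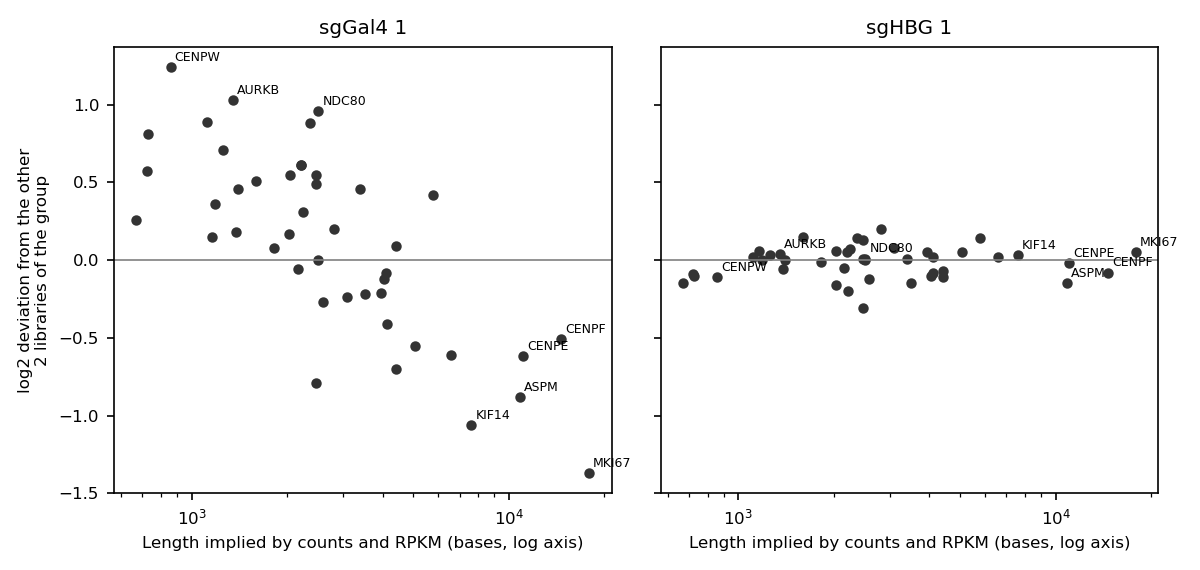
Log2 deviation of sgGal4 1 (left) and sgHBG 1 (right) from the other 2 libraries of their group, for each of the 44 genes, by the length implied from counts and RPKM (log axis). In sgGal4 1 the points fall with length, from 1.24 for CENPW to -1.37 for MKI67, and in sgHBG 1 they stay near 0.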

How the data were processed

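The authors deposited a table of raw read counts per gene and a table of RPKM values (reads scaled by transcript length and library depth) for the 14 libraries. Per the submitters' processing notes, TopHat, Cufflinks and DESeq were used with build hg19; versions and the counting tool are not given in the sources used here. Per the labels' protocols, total RNA was made into libraries with a TruSeq v2 kit. Counts were filtered with filterByExpr (minimum count 10, minimum total 15), scaled by TMM and fitted with a mean per group over all 14 libraries (edgeR 4.0.16, R 4.3.3, 9 residual degrees of freedom, common dispersion 0.0323). The quasi-likelihood F test gave each p value, Benjamini-Hochberg adjustment ran over 14406 genes, and calls are at an adjusted p under 0.05. The test was also run on simulated data, built from the mean levels and the spread fitted to these libraries. The alternatives were limma 3.58.1 (voom on counts; log2(RPKM + 1) or log2(RPKM + 0.1)), DESeq2 1.42.0, other scalings and filters, and left-out libraries. Up to 3 called members in each direction with the lowest p and 6 well known markers were described individually; further examples were chosen after their values were seen. The members and lists were chosen with earlier results of these data known. Exon overlaps were read from the GENCODE annotation. Promoters are RefSeq sequences of GRCh38.p14, and no coordinates of hg19 were used. Deviations of same-numbered replicates had correlations of -0.53, -0.60 and 0.42 between sgHS2 and sgGal4 (replicates 1, 2 and 3). Between the other groups they lay from -0.10 to 0.12. With no common direction, the numbers were not treated as pairs, and a replicate block was fitted as an alternative. The 3 counts behind 0.262 to 0.486 CPM mark the level below which values are near the detection limit.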

Additional observations from a re-analysis of the deposited data

How the results depend on the processing

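Direction was followed for the 6 well known markers and the called members with the lowest p. It covered the 3 comparisons with sgGal4 and that of sgGal4 with WT. There no call changed direction under any alternative listed here. Other genes and comparisons described individually were not followed through all alternatives. Counts of the 44 genes called stayed within 1.5 times the reported value under RLE size factors or when genes needed 1 CPM in at least 3 libraries. Fits to the 2 compared groups alone, which have fewer libraries, gave 9 lower in sgHS2, 3 lower and 0 higher in sgHBG, and 1 lower and 6 higher in sgHS1-5, each against sgGal4. They gave 10 lower and 1 higher in sgGal4 and 2 higher in sgHBG against WT, 19 lower in sgHS2 against sgHBG, and 22 higher and 2 lower in sgHS1-5 against sgHBG. Among all genes, these fits called 8.37% lower in sgHS2, 6.77% lower and 9.22% higher in sgHBG, and 8.61% lower and 8.48% higher in sgHS1-5, each against sgGal4. They called 12.7% lower and 13.7% higher in sgGal4 and 36.5% higher in sgHBG against WT. For sgHS2 against sgHBG 14.3% were lower, and for sgHS1-5 against sgHBG 19.7% were higher and 20.9% lower. With no low-count filter, sgGal4 against WT had 1 higher (15.3% of all genes), sgHS1-5 against WT 3 higher (16.2%) and sgHS2 against sgHBG 1 lower (3.19%). The replicate block gave 1 higher in sgGal4 against WT (21.2% of all genes) and 1 lower in sgHS2 against sgHBG (4.22%), and 20 lower in sgHS2 against sgGal4 (13.9%). RPKM values gave 1 higher in sgGal4 against WT at pseudocounts of 1 and 0.1 and with no filter (21.5%, 22.1% and 11.7% of all genes), and 0 lower in sgHS1-5 against sgHS2 with no filter (9.96%). Shares of all genes called also shifted with the libraries left out. Without sgGal4 1 and sgHS2 2, counts were 3 higher in sgHBG against sgGal4, 31 lower in sgGal4 and 1 higher in sgHBG against WT, 21 lower in sgHS2 against sgHBG, and 24 higher and 2 lower in sgHS1-5 against sgHBG. The shares of all genes there were 17.8% higher in sgHBG against sgGal4, and 27.3% lower in sgGal4 and 28.3% higher in sgHBG against WT. They were 13% lower in sgHS2 against sgHBG, and 23.2% higher and 24.8% lower in sgHS1-5 against sgHBG. Without sgHS1-5 2 and 3, which leaves 1 sgHS1-5 library, the median log2 difference of the 44 genes was -0.43 against WT. It was 0.23 against sgHBG and 0.47 against sgHS2. The medians of all genes were 0.026, -0.005 and -0.007. Without all 4 libraries, counts were 34 lower in sgHS2 and 7 higher in sgHBG against sgGal4, 35 lower in sgGal4 and 2 higher in sgHBG against WT, 29 lower in sgHS2 against sgHBG, 23 higher and 2 lower in sgHS1-5 against sgHBG, and 0 lower in sgHS1-5 against sgHS2. In that setting 29.8% of all genes were lower in sgHS2 and 27.8% higher in sgHBG against sgGal4, 34.5% lower in sgGal4 and 35.3% higher in sgHBG against WT, 21.9% lower in sgHS2 against sgHBG, and 20.5% higher in sgHS1-5 against sgHBG, so the 7 and 2 higher in sgHBG lie below their background. Leaving out each library in turn, ranges were 4 to 13 lower and 0 to 2 higher in sgHBG against sgGal4, 12 to 28 lower and 1 to 3 higher in sgGal4 against WT, and 17 to 23 lower in sgHBG against WT. Each library left out in turn gave 0 to 2 lower in sgHS2 against sgHBG, and 7 to 11 higher and 0 to 1 lower in sgHS1-5 against sgHBG. For sgHS1-5 against sgHS2 the range was 0 to 1 lower. Over these leave-outs, the shares of all genes ran from 6.53% to 15.5% lower and from 7.84% to 14.1% higher in sgHBG against sgGal4. They ran from 2.49% to 3.16% lower in sgHS2 against sgHBG. For sgHS1-5 against sgHBG they ran from 7.04% to 12.2% higher and from 8.98% to 11.6% lower. For sgHS1-5 against sgHS2 they ran from 14.9% to 16.7% lower. With a guide library left out, shares against WT ran from 18.2% to 24.4% lower and from 22.3% to 26.6% higher in sgGal4. They ran from 12.1% to 12.3% lower in sgHBG, and from 16.5% to 18.7% lower and 19.7% to 22.4% higher in sgHS1-5. The cause of these shifts was not tested. Outside sgHS1-5, UBE2C had from 2 counts (WT 1) to 15 counts (sgHS2 3) per library, and its values are imprecise there.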
